A study of Mus musculus with 14 samples.

Results

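The miR-7 family was measured in small extracellular vesicles, which are lipid-bound particles shed by cells, here by mouse neutrophils. Its 5 mature names, mmu-miR-7a-5p, mmu-miR-7a-1-3p, mmu-miR-7a-2-3p, mmu-miR-7b-5p and mmu-miR-7b-3p, were taken by exact name from a table of 1695 mature miRNA names, and all 5 were present with at least 1 count. The family was chosen on the readout itself, because miR-7a-5p was higher in vesicles from cells given 27-hydroxycholesterol (27HC). Differences between treatments are therefore given for its names as descriptions. Where the fit over all names called a member or did not, that is stated as part of the choice and supports nothing.

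The donors of the cells were female BALB/c mice, wild type in both groups. Ly6G+ neutrophils were taken from their marrow, and vesicles were collected with a commercial kit. Before that, the cells were kept for 48 h with the solvent DMSO (7 libraries) or with 10 µM 27HC, a cholesterol metabolite (7 libraries). The labels do not say whether libraries came from separate animals or cultures, or whether animals were pooled, so the spread between libraries may be partly technical. Each library name holds a pair of consecutive numbers, with the same pairs in both groups, and the labels do not explain them. Library totals ran from 112914 to 871189 counts. Earlier results of these data showed replicates 1 to 4 apart from replicates 5 to 7 in both groups, and what sets them apart is not given in the labels, so values are also given within each set.

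MicroRNAs are cut from hairpin precursors, and the arm loaded into Argonaute, the guide, pairs with messenger RNAs mainly through its seed, bases 2 to 8. For miR-7 the 5p arm is the usual guide, and the 3p arms are the passenger strands. miR-7 is best known from brain, pituitary and pancreatic islets, where it is abundant. The circular RNA Cdr1as carries many sites for it, and miR-671-5p directs the slicing of Cdr1as. In cancer cells the epidermal growth factor receptor is a described target of miR-7.

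All 5 names had a sequence in RefSeq (GRCm38.p6). They are shown because the guide names differ so little that their counts depend on how single bases were read. Capitals mark the seed.

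mmu-miR-7a-5p: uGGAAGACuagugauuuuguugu
mmu-miR-7b-5p: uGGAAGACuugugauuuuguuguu
mmu-miR-7a-1-3p: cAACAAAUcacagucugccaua
mmu-miR-7a-2-3p: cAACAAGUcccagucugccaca
mmu-miR-7b-3p: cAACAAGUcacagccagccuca

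The guide names share their seed and differ by 1 substitution over 23 bases, A10U, counted from the 5′ end with the miR-7a-5p base first. miR-7b-5p is 24 bases long and miR-7a-5p 23. Among the 1431 names of the table with a RefSeq sequence, no name other than these held the guide seed. Of the passenger names, miR-7a-2-3p and miR-7b-3p share a seed, and miR-7a-1-3p differs from miR-7a-2-3p at A7G within it. The rule by which reads matching several names were assigned is not given in the sources used here, so counts of miR-7a-5p and miR-7b-5p may be split between them in part.

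The loci Mir7-1, Mir7-2 and Mir7b encode the family, and their hairpins are shown because miR-7a-5p is encoded by both Mir7-1 and Mir7-2. Capitals mark both mature arms. Positions are those of RefSeq on GRCm38.p6. The submitters' processing notes name GRCm39, and the counts carry no positions.

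Mir7-1: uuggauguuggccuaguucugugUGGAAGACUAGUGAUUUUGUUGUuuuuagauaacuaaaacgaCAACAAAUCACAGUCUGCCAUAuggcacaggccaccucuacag
Mir7-2: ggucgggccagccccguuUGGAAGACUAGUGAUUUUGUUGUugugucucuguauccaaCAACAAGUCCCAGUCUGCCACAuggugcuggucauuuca
Mir7b: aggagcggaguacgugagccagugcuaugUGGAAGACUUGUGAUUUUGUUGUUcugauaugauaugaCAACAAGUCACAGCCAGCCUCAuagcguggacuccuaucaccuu

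Mir7-1 lies at chr13:58392779-58392886 on the minus strand, in an intron of Hnrnpk, which encodes an RNA-binding protein and is read from the same strand. Mir7-2 lies at chr7:78888277-78888373 on the plus strand and Mir7b at chr17:56242988-56243098 on the plus strand. GENCODE M21 placed no other gene over Mir7-2 or Mir7b. The counts of miR-7a-5p do not tell Mir7-1 from Mir7-2, whose passenger arms do.

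The family held 1935 counts over the 14 libraries, of which 1589 were miR-7a-5p and 259 were miR-7b-5p. In DMSO libraries miR-7a-5p was near the middle of the order of the 239 names left after filtering out low counts, and miR-7b-5p was lower. Among all 1695 names miR-7a-5p ranked from 98th to 123rd in these libraries. Levels are counts per 1000000 counts (CPM) after scaling by the trimmed mean of M-values (TMM), and mature miRNAs are read whole, so no length correction was made. A level is a share of the sequenced miRNA and does not tell copies per vesicle from the number of vesicles.

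In DMSO libraries miR-7a-5p stood at 361.6 ± 92.0 CPM (SD, n = 7), the 112th level of the 239 names left after filtering out low counts. Its neighbours in that order were miR-378d at 371.8 ± 70.3 CPM and miR-3968 at 366.3 ± 118 CPM above it, and miR-1895 at 358.8 ± 400.2 CPM and miR-126b-3p at 355.2 ± 102 CPM below it (SD, n = 7). These 5 levels did not differ beyond the spread between libraries. miR-7b-5p stood at 82.3 ± 26.8 CPM (SD, n = 7), the 186th level.

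The guide names were compared within each DMSO library. The choice of the family did not make this comparison, but it used the DMSO levels of miR-7a-5p. log2 CPM of miR-7a-5p exceeded that of miR-7b-5p by 2.06 ± 0.50 (SD, n = 7). How evenly the sequences of both names were recovered in the libraries was not tested, so this is an excess of counts. miR-7a-5p was higher in 7 of 7 libraries, which the labels do not show to be independent. In 27HC libraries the excess was 3.66 ± 0.77 (SD, n = 7), again in 7 of 7 libraries. Both excesses and the difference between them rest on levels that chose the family, so they are descriptions and no p is given.

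With 27HC the levels of the guide names lay further apart, that of miR-7a-5p higher and that of miR-7b-5p lower. In DMSO libraries 1 to 4 miR-7a-5p stood at 330.1, 292.5, 359.9 and 253.4 CPM, and in DMSO libraries 5 to 7 at 473.1, 500.6 and 321.9 CPM. In 27HC libraries 1 to 4 it stood at 579.6, 547.3, 543.9 and 448.9 CPM, and in 27HC libraries 5 to 7 at 545.1, 512.6 and 557.6 CPM. Of the 27HC libraries 6 lay above the highest DMSO library, and 27HC library 4 lay below DMSO libraries 5 and 6. The counts behind these levels ran from 59 to 264 per library.

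With 27HC the mean level of miR-7a-5p was 533.6 ± 42.3 CPM (SD, n = 7), 1.48 times the DMSO mean. Its log2 fold change in the fit over all names was 0.57 (SE 0.16). It was 1 of 9 names called higher, at an adjusted p under 0.05 in the quasi-likelihood test of edgeR, which is 3.77% of the 239 names tested. Of these 239 names 30 were called in either direction, 12.6%, and 21 were called lower, 8.79%. The median log2 fold change of all 239 was 0.010. Without DMSO replicate 2 the log2 fold change of miR-7a-5p was 0.51 and it was not called. Since this call is what chose the family, nothing is read from it here.

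Among the names called higher, miR-7a-5p had the 7th fold change. The log2 fold changes of the others were 2.42 for miR-3473e, 2.40 for miR-3473b, 1.96 for miR-7667-5p, 1.74 for miR-132-3p, 1.61 for miR-5128, 0.71 for miR-92a-3p, 0.50 for miR-484 and 0.31 for miR-27a-3p. Uncalled names with larger fold changes than miR-7a-5p were also present, and miR-7a-5p was 21st in that order over all tested names.

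**Figure D1:**
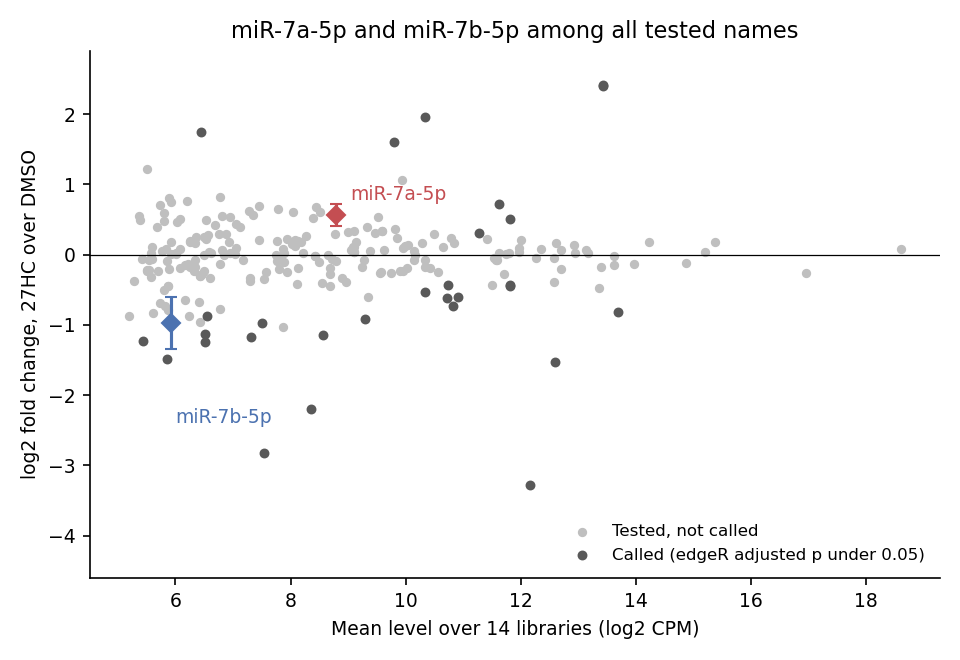
log2 fold change of 27HC over DMSO (y axis) against the mean level over 14 libraries in log2 CPM (x axis) for the 239 tested names, with names called by edgeR in dark grey. Diamonds with SE bars mark miR-7a-5p at 0.57 and miR-7b-5p at −0.97, which lie on opposite sides of 0.

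The treatment difference of miR-7a-5p was larger in replicates 1 to 4 than in replicates 5 to 7. In replicates 1 to 4 its mean level was 309.0 ± 46.2 CPM without and 529.9 ± 56.4 CPM with 27HC (SD, n = 4 each), and its log2 fold change was 0.84. In replicates 5 to 7 its mean level was 431.9 ± 96.2 CPM without and 538.4 ± 23.3 CPM with 27HC (SD, n = 3 each), and its log2 fold change was 0.33, which was not called in these libraries alone. The means of the 27HC sets were close to each other, and those of the DMSO sets were further apart.

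Within each set the lowest 27HC library lay above the highest DMSO library. This held in both sets for 6 of the 239 tested names, 2.51%, and it belongs to the contrast that chose the family. Whether the fold change differed between the sets was asked with an interaction term, which the choice did not use. For miR-7a-5p the term (replicates 5 to 7 minus 1 to 4) was −0.45 with SE 0.27 and adjusted p = 0.514 in edgeR, so a difference between the sets was not shown. Without DMSO replicate 7 the term was −0.77 and was not called either. Over all names the interaction called 0 of 239 in edgeR (0.0%), with 24 at an unadjusted p under 0.05, and 0 in limma-voom.

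**Figure D2:**
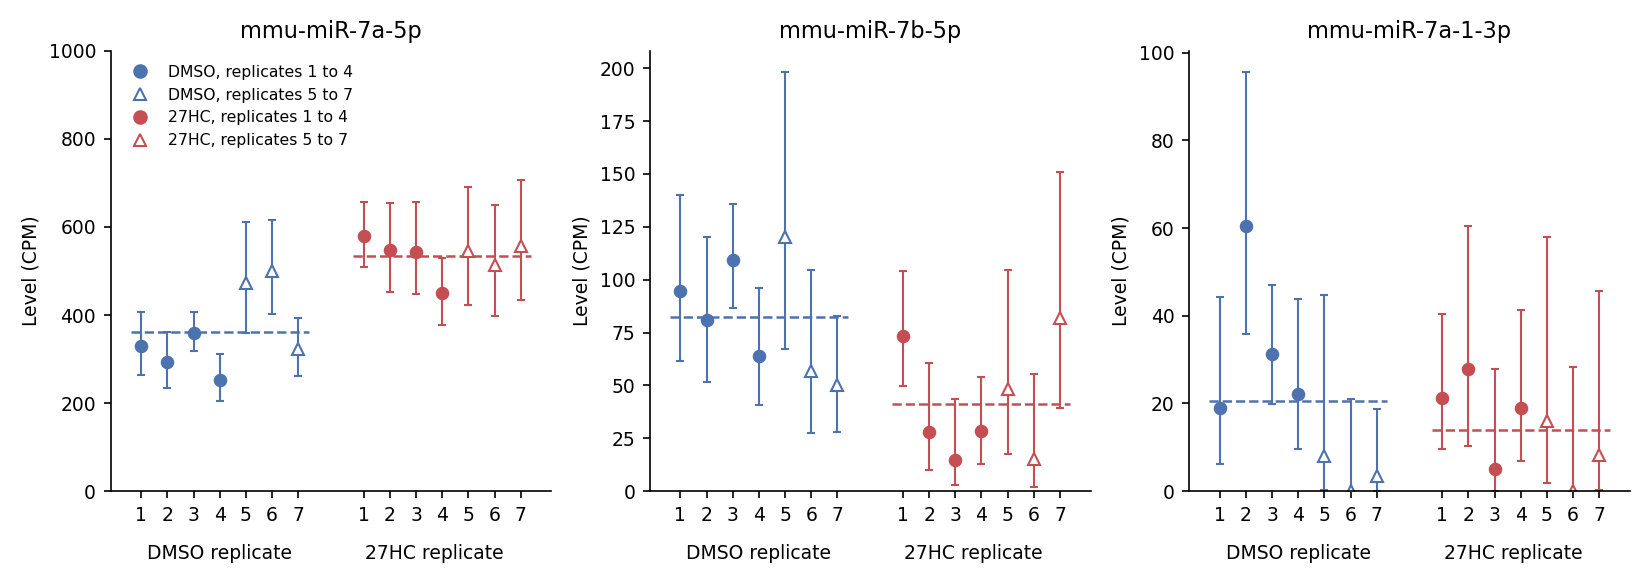
Levels in CPM (y axes, from 0) of mmu-miR-7a-5p, mmu-miR-7b-5p and mmu-miR-7a-1-3p in each DMSO and 27HC library (x axes). Circles are replicates 1 to 4 and triangles replicates 5 to 7, bars are exact Poisson 95% intervals of each count and dashed lines are group means; miR-7a-5p averaged 361.6 CPM without and 533.6 CPM with 27HC.

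miR-7b-5p, the other guide name, was lower with 27HC and far scarcer. In DMSO libraries 1 to 7 it stood at 94.9, 80.7, 109.1, 64.04, 120.3, 56.9 and 50.3 CPM, on 10 to 80 counts. In 27HC libraries 1 to 7 it stood at 73.3, 27.8, 14.97, 28.5, 48.1, 15.3 and 82.01 CPM, on 2 to 31 counts. Of the 27HC libraries 5 lay below the lowest DMSO library, while 27HC libraries 1 and 7 lay within the DMSO range.

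Its mean level was 82.3 ± 26.8 CPM without and 41.4 ± 27.2 CPM with 27HC (SD, n = 7 each). The fitted log2 fold change of miR-7b-5p was −0.97 (SE 0.37), and it was not called. It passed the filter on low counts through the DMSO group, with 7 of 7 DMSO and 3 of 7 27HC libraries at the filter's level of 41.2 CPM. A name that passes through 1 group alone had to be high in that group. In replicates 1 to 4 alone its log2 fold change was −1.10, and it did not pass the filter in replicates 5 to 7 alone. There it stood at 75.8 ± 38.6 CPM without and 48.5 ± 33.4 CPM with 27HC (SD, n = 3 each), and the libraries overlapped. The interaction term of miR-7b-5p was 0.59 with SE 0.77 and adjusted p = 0.836 in edgeR.

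As a share of the counts of both guide names, which does not depend on library scaling, miR-7b-5p held 18.8 ± 4.94% in DMSO and 6.93 ± 3.96% in 27HC libraries (SD, n = 7). DMSO shares ran from 10.2% through a median of 20.3% to 23.3%, and 27HC shares from 2.68% through a median of 5.96% to 12.8%. Below the lowest DMSO share, that of replicate 6, lay 5 of the 27HC libraries, and 27HC replicates 1 (11.2%) and 7 (12.8%) lay above it. Pooled over libraries, 192 of 964 counts were miR-7b-5p in DMSO (19.9%, exact 95% interval 17.4% to 22.6%) and 67 of 884 with 27HC (7.58%, 5.92% to 9.53%). These intervals cover counting error only. miR-7a-5p was chosen as higher with 27HC, and miR-7b-5p passed the filter through the DMSO group. A lower share with 27HC is thus in part set by the choice and supports nothing further.

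**Figure D3:**
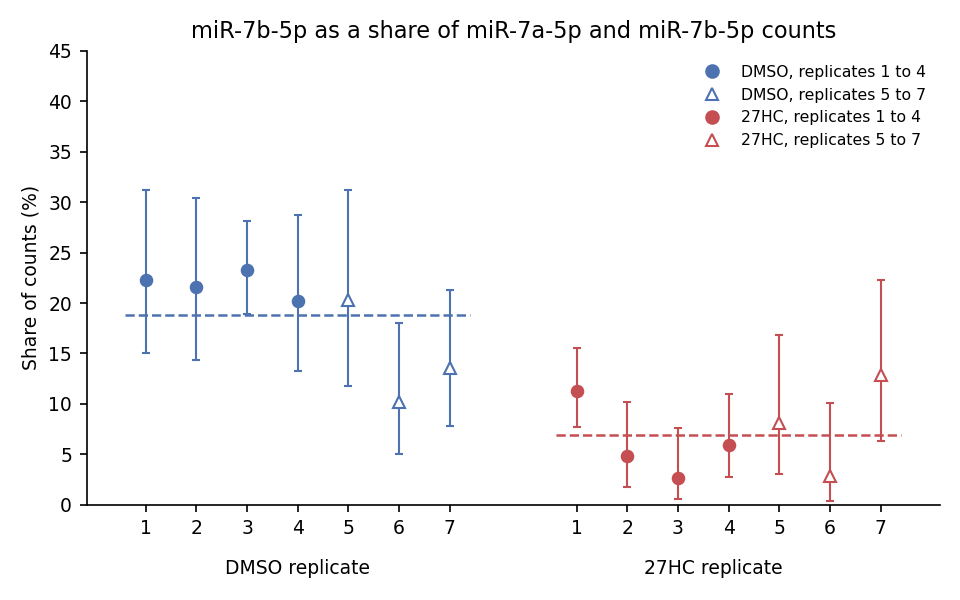
miR-7b-5p as a percentage of the miR-7a-5p and miR-7b-5p counts (y axis, from 0) in each DMSO and 27HC library (x axis), with exact binomial 95% intervals and group means as dashed lines. The means are 18.8% in DMSO and 6.93% in 27HC libraries, and 2 of the 27HC libraries, 1 and 7, lie above the lowest DMSO library. The share holds levels that chose the family.

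Both guide names together differed less between treatments than miR-7a-5p alone, as adding a name that was lower to one chosen as higher must give. Their summed level was 444.0 ± 102 CPM without 27HC, from 317.4 to 593.4 CPM, and 575.0 ± 61.3 CPM with it, from 477.4 to 652.9 CPM (SD, n = 7 each), so the groups overlapped. Counted as 1 name in the fit over all names, they had a log2 fold change of 0.36 in place of 0.57 for miR-7a-5p, and the joint name was not called.

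The passenger strands were scarce, and none of the 3 passed the filter on low counts. mmu-miR-7a-1-3p, the passenger of Mir7-1, had 81 counts in all. mmu-miR-7a-2-3p, the passenger of Mir7-2, had 1 count, in DMSO replicate 2, and its 0 counts in the 27HC libraries allow a pooled level of up to 1.96 CPM (3 counts over the group). Of the 82 passenger counts of both miR-7a hairpins, 98.8% were therefore miR-7a-1-3p (exact 95% interval 93.4% to 99.97%). mmu-miR-7b-3p had 5 counts, 4 in DMSO and 1 in 27HC libraries, against 259 of miR-7b-5p.

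miR-7a-1-3p was found mainly in replicates 1 to 4. In DMSO libraries 1 to 4 it stood at 18.97, 60.5, 31.4 and 22.3 CPM, and in DMSO libraries 5 to 7 at 8.02, 0 and 3.35 CPM. In 27HC libraries 1 to 4 it stood at 21.3, 27.8, 4.99 and 18.97 CPM, and in 27HC libraries 5 to 7 at 16.03, 0 and 8.20 CPM. Replicates 1 to 4 held 54 of the 56 DMSO counts and 22 of the 25 counts with 27HC. Within each treatment they were also the deeper libraries, from 265651 to 871189 counts against 112914 to 252014 in DMSO and from 229324 to 405902 against 119852 to 127014 with 27HC. The part of depth in this difference was not tested. Taking 3 counts as what a count of 0 allows, the limit was 24.1 CPM in the shallowest DMSO library and 24.6 CPM in the shallowest 27HC library.

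Against the guide, miR-7a-1-3p took 9.26% of the counts of both arms in DMSO replicates 1 to 4 (exact 95% interval 7.04% to 11.9%) and 0.816% in DMSO replicates 5 to 7 (0.099% to 2.92%). With 27HC these shares were 3.46% (2.18% to 5.19%) and 1.46% (0.301% to 4.20%). These intervals pool the counts of several libraries and cover counting error only. In DMSO replicates 1 to 4 the guide counts per passenger count ran from 4.83 (replicate 2) to 17.4 (replicate 1), a spread they leave out. DMSO replicate 2 held 18 passenger counts beside 87 guide counts. The fitted log2 fold change of miR-7a-1-3p over all replicates was −0.71 in a fit without the filter, with groups that overlapped, and it was −0.22 without DMSO replicate 2 and −0.43 without DMSO replicate 3. It was −0.95 in replicates 1 to 4 and 1.04, in the opposite direction, in replicates 5 to 7, where it rests on 2 DMSO and 3 27HC counts.

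A list of names tied to miR-7 held both arms of miR-671, which acts on Cdr1as, and both arms of miR-3529. The miR-3529 names were not found among the 1695 names of the table, so they have no values here. Of the miR-671 names 0 of 2 passed the filter, so neither was tested. miR-671-5p, the slicing guide of Cdr1as, ran from 11.4 through a median of 27.8 to 112.3 CPM in DMSO and from 22.1 through 44.9 to 80.2 CPM in 27HC libraries, with means of 39.7 ± 35.1 and 45.2 ± 23.9 CPM (SD, n = 7 each). The passenger miR-671-3p had means of 11.7 ± 8.19 CPM without and 18.4 ± 10.5 CPM with 27HC (SD, n = 7 each). Both overlapped between the groups, and their fitted log2 fold changes without the filter were 0.18 and 0.58. With 1 library left out in turn, that of miR-671-5p ran from 0.030 (without DMSO replicate 6) to 0.50 (without DMSO replicate 5), and that of miR-671-3p from 0.40 to 0.83.

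Names whose levels varied most like those of miR-7a-5p were sought after removing each group's mean, over 14 libraries and 238 other tested names. The highest Pearson r of the deviations in log2 CPM were 0.681 for miR-196b-5p, 0.618 for miR-181b-5p and 0.604 for miR-669b-3p. The lowest was −0.852, for let-7d-3p. Without the libraries farthest from the median of miR-7a-5p, DMSO replicates 4 and 6, these were 0.739, 0.393, 0.378 and −0.777. With the means of the replicate sets also removed, they were 0.520, 0.253, 0.325 and −0.874. miR-181b-5p and miR-669b-3p thus had smaller values under both changes.

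miR-196b-5p comes from the Hox clusters and is known from myeloid progenitors, and let-7d-3p is a passenger strand of the let-7 family. let-7d-3p was higher in the DMSO libraries of replicates 1 to 4, at a mean of 1157 CPM, than in those of replicates 5 to 7, at 818.4 CPM, the opposite order to miR-7a-5p. In 27HC libraries its means in these sets were 1226 and 959.1 CPM, where those of miR-7a-5p were 529.9 and 538.4 CPM. miR-7b-5p stood 63rd of 238, with an r of 0.231. None of these 5 names was called between treatments. The libraries share depth, scaling and set, and the values are descriptions.

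**Figure D4:**
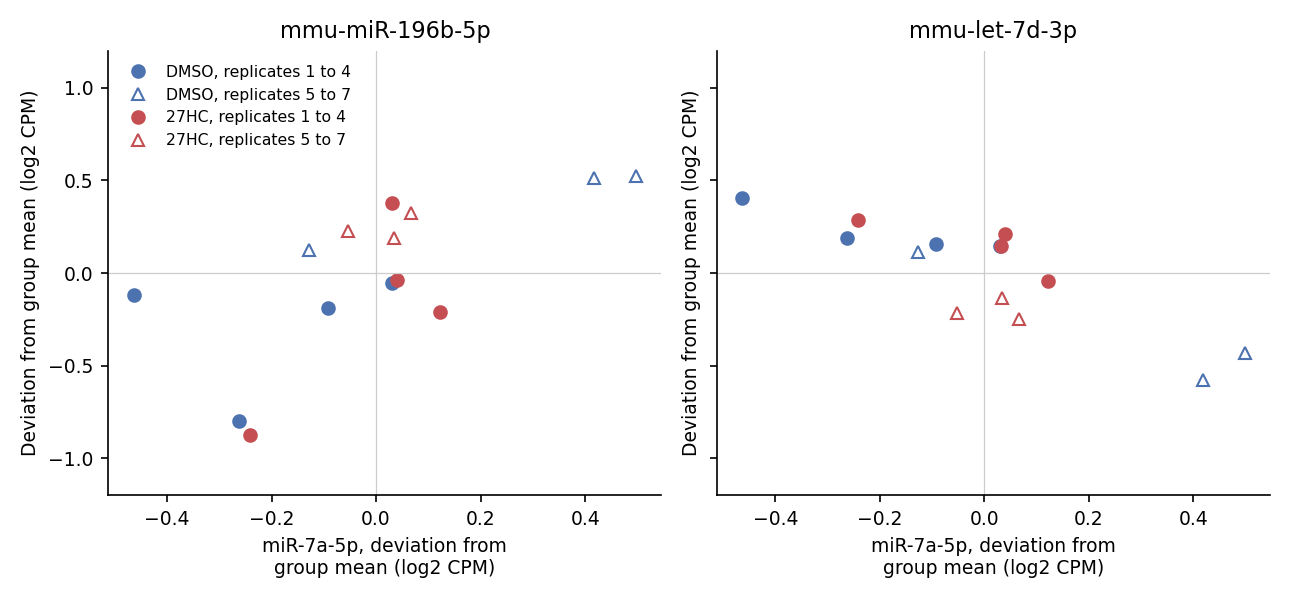
Deviations from the group mean in log2 CPM of miR-196b-5p (left) and let-7d-3p (right) on the y axes against those of miR-7a-5p on the x axes, with 1 point per library and treatments and replicate sets marked. Pearson r is 0.681 for miR-196b-5p and −0.852 for let-7d-3p over 14 libraries.

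Markers of the labelled cell type and of other tissues were read from the same libraries. The 4 names listed as myeloid summed to between 83290 and 216700 CPM without and between 113100 and 149200 CPM with 27HC. They were led by miR-223-3p, an abundant miRNA of neutrophils. The miR-142a arms in this list are found across blood cell types and are not particular to myeloid cells. Of the 4, miR-142a-3p and miR-142a-5p were called lower by edgeR, at log2 fold changes of −1.53 and −0.74, against 8.79% of all tested names, and limma-voom called 1 of the 4. miR-223-3p and miR-223-5p were not called, at −0.26 and 0.17. Of the 2 lymphoid names miR-150-5p was called lower, at −0.97, against the same 8.79%, and miR-181a-5p was not called, at −0.079. The lists of erythroid, endothelial and stromal, epithelial, muscle and liver names held 18 names, of which 12 were tested. Of these, 0 were called by edgeR, DESeq2 or limma-voom, which called 30 (12.6%), 32 and 27 of all 239 tested names, in that order. An unadjusted p under 0.05 in edgeR was held by 0 of them, against 53 of all 239. Their median summed levels in DMSO and 27HC libraries were 710.3 and 973.7 CPM for erythroid, 1576 and 1416 CPM for endothelial and stromal, and 428.7 and 419.2 CPM for epithelial names. They were 687.7 and 774.6 CPM for muscle names, and 3175 and 3264 CPM for the liver name miR-122-5p, which was thus more abundant than miR-7a-5p. No marker of these lists was at 0 in all libraries.

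Of 11 names known, like miR-7, from brain or endocrine tissue, 3 passed the filter. Of these, 0 were called by edgeR, DESeq2 or limma-voom. An unadjusted p under 0.05 in edgeR was held by 0 of them, against 53 of all 239 tested names. With 12.6% of all tested names called, a count of 0 among 3 names is near the background. Their median log2 fold change was 0.20 against 0.010 over all tested names. miR-9-5p, a neural miRNA, had a mean level of 191.9 CPM without and 297.6 CPM with 27HC, a log2 fold change of 0.65 (SE 0.38). miR-128-3p and miR-184-3p had log2 fold changes of 0.057 (SE 0.13) and 0.20 (SE 0.74). The islet miRNA miR-375-3p and the neuronal miR-124-3p had 16 and 22 counts over all libraries. miR-153-3p, with 176 counts, did not pass the filter and had means of 30.45 CPM without and 80.48 CPM with 27HC. All 11 names summed to a median of 1519 CPM without and 1721 CPM with 27HC, in ranges that overlapped. A narrower marker list held miR-375-3p, miR-9-5p, miR-124-3p and miR-137-3p. It summed to a median of 159.4 CPM without and 335.1 CPM with 27HC, in ranges that overlapped. Most of that sum was miR-9-5p. The highest group mean of the other names in it was 8.76 CPM, for miR-124-3p with 27HC. The part of other cell types in the miR-7 levels was not tested.

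The fold changes of both guide names were refitted under other scalings, filters, tools and subsets of libraries, to show how far their size moved. For miR-7a-5p the log2 fold change ran from 0.33 to 0.84 over 27 alternatives, 1 of which joined it with miR-7b-5p, and 22 of them called it. For miR-7b-5p it ran from −1.17 to −0.80 over the 24 alternatives in which the name was tested, and 0 of them called it. These refits use the values that chose the family, and miR-7b-5p passed the filter through the DMSO group, so their signs support nothing further.

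**Figure D5:**
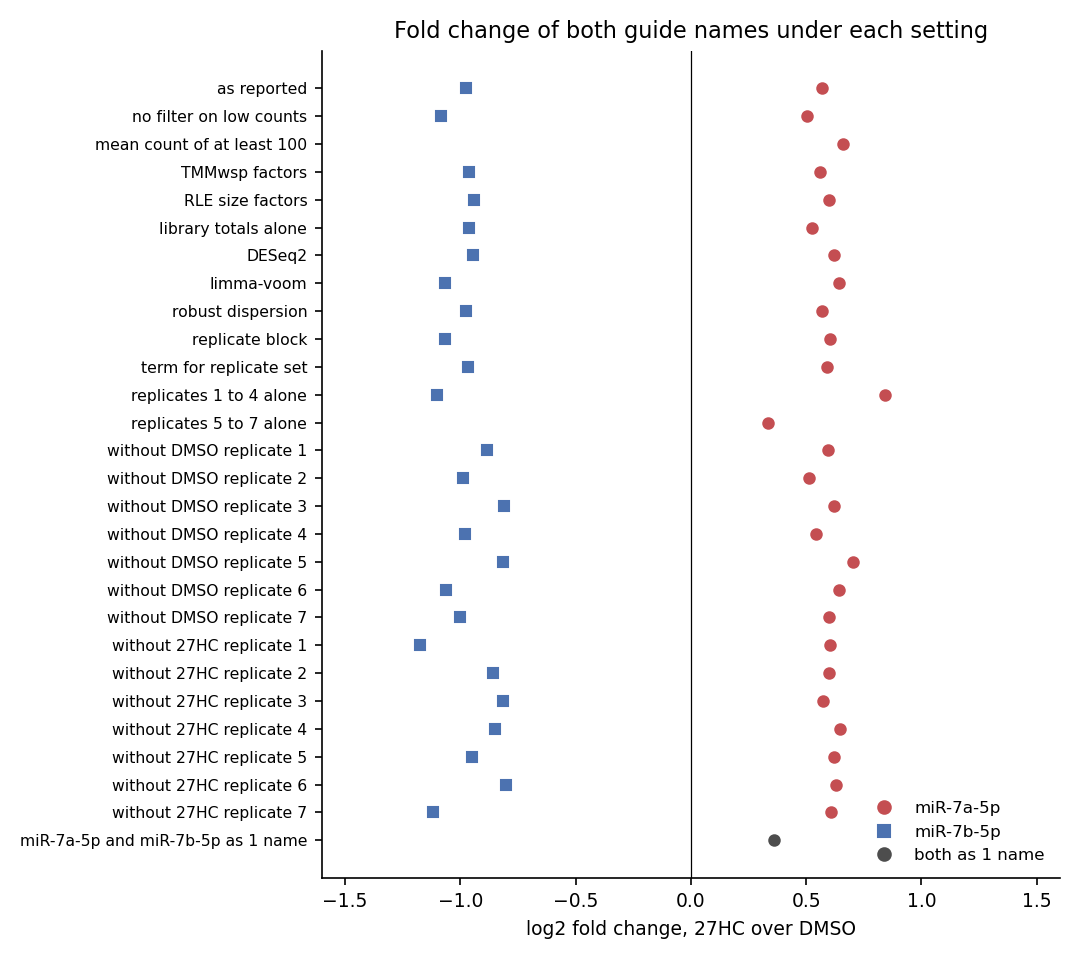
log2 fold change of 27HC over DMSO (x axis) of miR-7a-5p (red circles) and miR-7b-5p (blue squares) as reported and under each alternative (y axis), with both names counted as 1 in grey. miR-7a-5p, the joined name included, lies between 0.33 and 0.84 and miR-7b-5p between −1.17 and −0.80.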

How the data were processed

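Per the labels' protocols, the miRNeasy Micro kit gave the vesicle RNA, and small RNA libraries came from the QIAseq miRNA kit, a kit whose chemistry includes molecular identifiers. The deposited values were the authors' raw counts, whole numbers per mature miRNA name and library. The submitters' processing notes name R 4.1.2, edgeR, limma and the build GRCm39, with no role. The aligner, the rule for reads matching several names and the use of the identifiers are not given in the sources used here, so intervals cover counting error only.

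Treatments were compared in R 4.3.3 with edgeR 4.0.16 (quasi-likelihood F test), with TMM scaling, filterByExpr defaults (minimum count 10, minimum total 15) and Benjamini-Hochberg adjustment over the tested names. SEs were derived from the fold change and F. log2 CPM used a prior count of 2, and CPM are per scaled counts of the names that passed the filter. Fold changes of names below the filter came from a fit without it. The fit was tested on simulated data. Every pair of libraries within a group differed by more than sampling noise (lowest chi-square per degree of freedom 5.65). 0 columns or libraries were left unmatched.

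Named were all family members, names with the guide seed, a list tied to Cdr1as, the 3 most and the 1 least similar names, 2 neighbours in level on each side and names called higher. The list of brain and endocrine names and the marker lists are described above. Members, lists and tests were chosen with earlier results of these data known. Alternatives were other scalings, filters, DESeq2 1.42.0, limma-voom (limma 3.58.1), robust dispersion, terms for replicate number and set, each library left out, and both guide names as 1.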

Additional observations from a re-analysis of the deposited data

Results flagged for a closer look

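In 2 of 12 groups of 7 libraries examined, over family names, miR-671 names and the miR-7b-5p share, 1 library stood far from the other 6. Chance alone is taken to mark about 1 in 20 groups this way, a rate that was not estimated for counts as low as these. miR-671-5p stood at 112.3 CPM in DMSO replicate 5 (14 counts), and the library closest to it was at 53.7 CPM. miR-671-3p stood at 28.4 CPM in DMSO replicate 6 (5 counts), and the library closest to it was at 13.5 CPM. No such library was found for miR-7a-5p, miR-7b-5p or miR-7a-1-3p.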

How the results depend on the processing

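With each library left out in turn, the log2 fold change of miR-7a-5p ran from 0.51 to 0.70, that of miR-7b-5p from −1.17 to −0.80 and the number of names called from 21 to 34. The interaction of miR-7a-5p ran from −0.77 (without DMSO replicate 7) to −0.34 and was not called, and the excess of miR-7a-5p over miR-7b-5p in DMSO libraries ran from 1.91 to 2.13. Replicates 1 to 4 alone gave 0.84 for miR-7a-5p, and replicates 5 to 7 alone gave 0.33, 12 names called and 1.04 for miR-7a-1-3p in place of −0.71. These sets hold fewer libraries. miR-7a-5p, whose call chose the family, was called in 22 of 27 alternatives. It was not called without DMSO replicate 2 (0.51), with no filter (0.50), with library totals alone (0.53), in replicates 5 to 7 alone, or joined with miR-7b-5p (0.36); the cause was not tested. miR-7b-5p was called in 0 of 24. Replicate numbers were not taken to pair the libraries. The correlation of deviations between libraries of the same number was over 0.1 in 6 of 7 pairs, from 0.069 to 0.600. Among the 7 27HC libraries, the best match had the same number for 3 of 7 DMSO libraries. With the means of the replicate sets also removed, the same correlation ran from −0.111 to 0.292. The replicate block gave 37 names called, 0.60 for miR-7a-5p and −1.06 for miR-7b-5p. Names with under 10 counts, miR-7a-2-3p and miR-7b-3p, were not refitted. At 2 to 31 counts of miR-7b-5p in a 27HC library, depth limits the precision of its level and share.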
